A study of Mus musculus with 9 samples.

Results

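The genes examined lie in the proximal part of mouse chromosome 6, around the imprinted pair *Peg10* and *Sgce*. They are *Calcr*, *Tfpi2*, *Casd1*, *Sgce*, *Peg10*, *Ppp1r9a*, *Pon3*, *Pon2*, *Asb4* and *Pdk4*, 10 of the 55450 genes in the count files, and they were chosen by name and position. All 10 passed the filter of a mean count of at least 5, as did 19371 genes in all. RNA was sequenced from Rathke’s pouch, the embryonic primordium of the anterior pituitary, of 7 embryos on embryonic day 13.5 and from 2 adult pituitaries, taken without the posterior lobe at postnatal week 8. The embryos carried the Sox2Egfp/+ genotype, in which 1 allele of *Sox2* is a reporter, both groups were on a mixed 129Sv/c57BL6J background, and no *Sox2* genotype is stated for the adults in the sources used here. Both groups held animals of both sexes, but sex is not given per sample. Stage, reporter allele and tissue composition therefore cannot be told apart.

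Imprinted genes are expressed from the copy inherited from a single parent, and neighbours in a cluster can be controlled by a shared differentially methylated region. At this locus the methylated region lies at the start of *Peg10* and *Sgce*, which are expressed from the paternal copy, while several flanking genes are expressed from the maternal copy in some tissues such as placenta or brain. The cluster is best known for placental growth, which needs *Peg10*, and for a movement disorder caused by loss of *SGCE* in humans. The counts were made per gene and do not separate the parental copies.

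The depth was 16738863 to 28537311 read pairs counted on genes in the embryos (median 24687556) and 36421545 and 31191117 in the adults. Levels are given in CPM, counts scaled to library sizes normalised with the TMM method of edgeR. At 3 counts, the floor used here for counting error alone, the level was no higher than 0.220 CPM in an embryo and 0.0843 CPM in an adult. Of 8 markers of Rathke’s pouch and stem cells, 5 were higher in the embryo and 1 in the adult with an adjusted p below 0.05. Their sum was 539 to 1232 CPM in the embryos, with 490.4 and 407 CPM in the adults. *Pitx1*, the most abundant in the embryos on average, was higher in every embryo (240.4 to 541 CPM) than in the adults (134 and 109 CPM), *Lhx3* overlapped (107 to 294 against 116 and 108 CPM), and *Sox2* was lower in every embryo (26.5 to 44.8 CPM) than in the adults (64.1 and 56.8 CPM). In the embryos 1 allele of *Sox2* is a reporter, so for *Sox2* stage and genotype cannot be told apart. *Gh* had 53470 and 63848 CPM in the adults and at most 1.90 CPM in an embryo. Markers of other cell types were present too. The summed level of 8 mesenchymal markers, led by *Col3a1* in the embryos and by *Dcn* in the adults, was 569.8 to 1942 CPM in the embryos and 434 and 325 CPM in the adults, and that of 6 endothelial markers was 155 to 547 CPM and 122 and 76.6 CPM. With an adjusted p below 0.05, 6 mesenchymal markers were higher in the embryo and 1 in the adult. Of the endothelial markers 4 were higher in the embryo and 0 in the adult. *Prrx1*, on the mesenchymal list, had 2.56 to 10.8 CPM in the embryos and 35.0 and 44.8 CPM in the adults.

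The libraries of embryos 1 and 4 stood apart from the other embryos. All 7 erythroid markers were higher in both than in any other embryo, with summed levels of 163744 and 203665 CPM, against 6022 to 18512 CPM in the remaining 5, and with 657 and 1703 CPM in the adults, where *Hbb-bh1* had no count. *Hbb-y*, the most abundant of them in the embryos, had 100805 and 128827 CPM in embryos 1 and 4. Read pairs aligned in several places made up 21.7% and 26.1% of these libraries, against 14.1% to 19.7% in the remaining embryos, the highest of which was embryo 6. Unmapped read pairs made up 10.3% and 4.74%, against 0.863% to 2.54%, and read pairs on no annotated feature 6.31% and 4.24%. The last share was 6.39% and 6.62% in the adults and 2.40% to 3.07% in the remaining embryos. Embryo 2 held the highest level of 9 of 13 neural and hypothalamic markers, with a summed level of 562 CPM, against 191 to 391 CPM in any other embryo. The adults had sums of 408 and 424 CPM. Of the 13 markers, 5 were higher in the embryo and 4 in the adult with an adjusted p below 0.05. *Rax* had 29.2 to 92.8 CPM in the embryos and 1.48 and 2.11 CPM in the adults. *Map2* went the other way, with 25.7 to 57.3 CPM and 268 and 311 CPM. In embryo 2 the most abundant marker of that list was *Tubb3* (188 CPM), in the adults it was *Map2*, and *Avp* had no count in any embryo. This embryo also had the highest endothelial sum (547 CPM, against at most 331), the highest sum of 6 macrophage markers (255 CPM, against at most 167), and the lowest sum of Rathke’s pouch markers. In bulk tissue, fewer cells of a type and less RNA per cell cannot be told apart.

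The region spans 1.81 Mb, from 3685680 to 5496309 in GRCm38, and embryo was compared with adult along it. Of the 10 genes, 6 had an adjusted p below 0.05 in edgeR’s quasi-likelihood test, against 51.4% of all tested genes. *Calcr* and *Pon2* were higher in the embryo, where 24.0% of tested genes passed, and *Casd1*, *Ppp1r9a*, *Asb4* and *Pdk4* were higher in the adult, where 27.4% passed. With the additional requirement of a fold change above 4, *Calcr* passed as higher in the embryo (11.3% of tested genes) and *Pdk4* as higher in the adult (14.6%), 2 of 10 genes against 25.8% of tested genes. The groups did not overlap for 4 of the 10 genes, against 59.1% of tested genes. All embryos were above both adults for *Pon2*, as for 26.2% of tested genes, and below both for *Ppp1r9a*, *Asb4* and *Pdk4*, as for 32.9%. The median log2 fold change, embryo over adult, was −0.48 for the 10 genes and −0.04 for all tested genes. The p-values measure the spread between single animals, and with 2 adults that spread is estimated with information borrowed across genes. The count of 6 was 2 without adult 1 or without adult 2, where the share of all tested genes fell as well, to 32.9% and 30.6%. It was 3 without embryo 5 (48.8% of all tested genes), 4 or 5 without another embryo (48.5% to 54.9%), and 5 without embryos 1 and 4 (56.8%). When the libraries were corrected for length and GC content of the transcripts, *Asb4* and *Pdk4* were higher in the adult and *Calcr*, *Peg10* and *Pon2* in the embryo. In that fit 48.1% of all tested genes passed. The correction takes out trends with length and GC content between the stages, and it cannot tell a technical trend from a biological one.

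**Figure D1:**
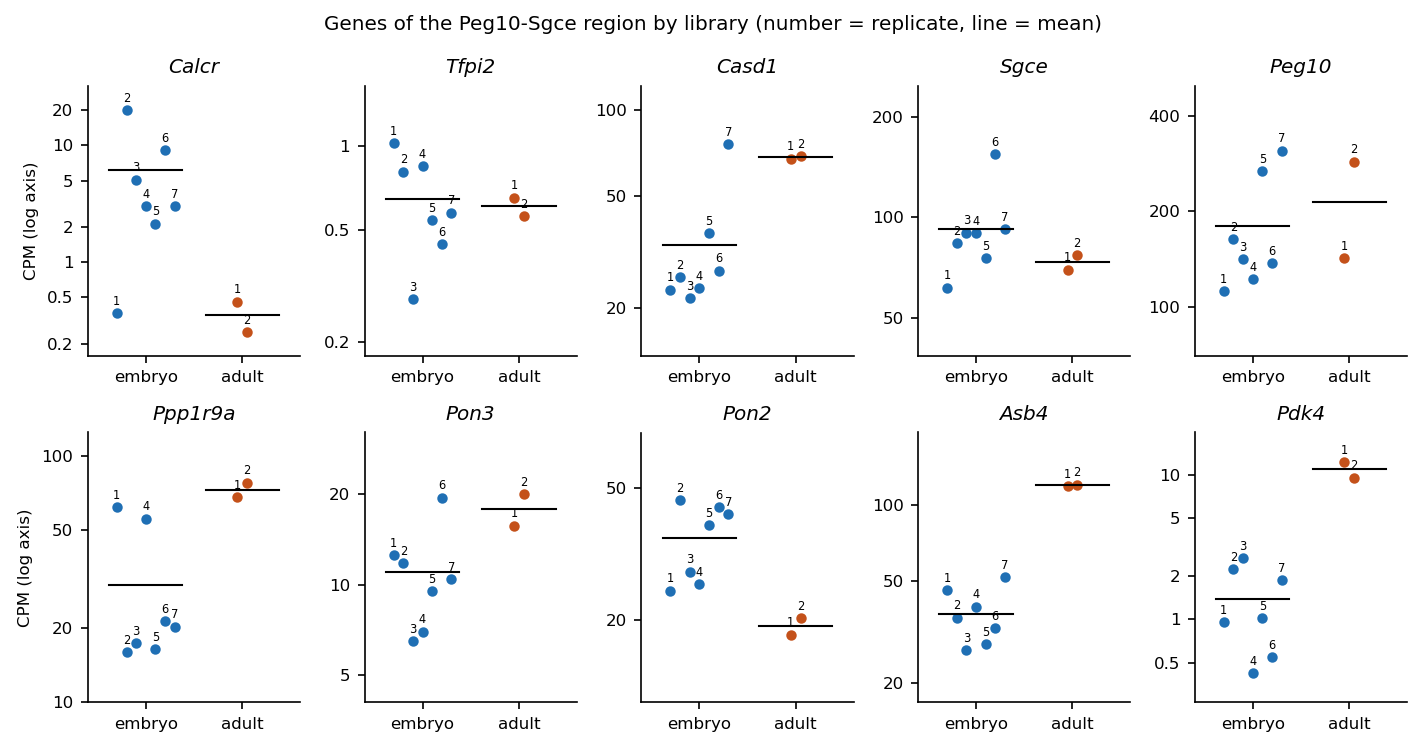
Level of each gene in every library in CPM on a log axis whose range differs between panels, with genes in chromosomal order, embryos in blue and adults in orange, replicate numbers beside the points and the group mean as a line. All 7 embryos sit below both adults for *Ppp1r9a*, *Asb4* and *Pdk4*, and above both for *Pon2*.

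*Calcr* (ENSMUSG00000023964.15, chromosome 6, 3685680 to 3764714, reverse strand) encodes the calcitonin receptor, a G protein-coupled receptor. It ran from 0.366 CPM in embryo 1 over a median of 3.03 CPM to 20.1 CPM in embryo 2, and it had 0.461 and 0.253 CPM in adults 1 and 2. Embryo 1 lay between the adults, with 5 counts, and the other 6 embryos lay above both. The log2 fold change was 4.08 (SE 1.22, edgeR adjusted p = 0.0121). In edgeR it was 3.39 without embryo 2 (adjusted p = 0.0115) and 4.45 without embryos 1 and 4 (adjusted p = 0.0016), but the test was not passed without adult 1 or adult 2 (adjusted p = 0.0598 and 0.0968). Over the alternatives in edgeR and DESeq2 the adjusted p ran from 3.1e-05 to 0.0968. Embryos 2, 6 and 3 had the highest levels of *Calcr* (20.1, 9.06 and 5.08 CPM), and the same embryos had the highest sums of the neural markers (562, 391 and 286 CPM). Embryo 2 also stood out in the endothelial and macrophage sums (547 and 255 CPM), which were 290 and 106 CPM in embryo 6 and 155 and 122 CPM in embryo 3. The part of any of these tissues in the level of *Calcr* was not tested. The adults had neural sums of 408 and 424 CPM, of which *Map2* gave 268 and 311 CPM and *Rax* 1.48 and 2.11 CPM.

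The partners of the receptor were measured in the same libraries. Of 9 genes for its ligands, accessory proteins and relatives, 7 were tested, and 4 were higher in the embryo with an adjusted p below 0.05, against 24.0% of all tested genes. They were *Calca*, which encodes calcitonin and its related peptide (log2 fold change 4.51, SE 0.75, edgeR adjusted p = 2.6e-04), the receptor activity-modifying proteins *Ramp2* (2.92) and *Ramp3* (2.35), and *Crcp* (1.05). *Crcp* did not pass in 4 of 15 alternatives, among them the length and GC correction (0.25), the replicate block and the fit without adult 2. *Calca* had 11.5 to 60.5 CPM in the embryos, all above both adults, whose mean was 1.31 CPM. The median over the 7 tested genes was 1.05, against −0.04 for all tested genes.

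*Tfpi2* (ENSMUSG00000029664.10, 3962595 to 3988919, reverse strand) encodes an inhibitor of serine proteases. It was low throughout, with 0.284, 0.578 and 1.03 CPM as the lowest, median and highest embryo and 0.655 and 0.562 CPM in the adults. The groups overlapped, and the difference was smaller than the spread between embryos (log2 fold change 0.08, SE 0.73, edgeR adjusted p = 0.937), with a sign that changed between alternatives. Of 8 genes of the tissue factor pathway and related proteases, 6 were tested and 5 had an adjusted p below 0.05, against 51.4% of all tested genes. *Mmp2* (3.20), *F10* (2.51), *Tfpi* (2.37), the related inhibitor, and *Plau* (1.79) were higher in the embryo on the log2 scale, and *F3*, which encodes tissue factor itself, was higher in the adult (−1.61, SE 0.44, edgeR adjusted p = 0.0071). *F10* passed in 6 of 15 alternatives and ran from 1.58 without adult 1 to 5.26 without adult 2. *Plau* did not pass without adult 1 or without adult 2, nor *F3* without adult 1 or with the replicate block.

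*Casd1* (ENSMUSG00000015189.12, 4600839 to 4643355, forward strand) encodes the enzyme that adds O-acetyl groups to sialic acids. It had 21.8, 25.8 and 76.1 CPM as the lowest, median and highest embryo and 67.5 and 69.0 CPM in the adults. Embryo 7 was above both adults and the other 6 embryos were below both, with at most 36.9 CPM. Its log2 fold change was −1.02 (SE 0.40, edgeR adjusted p = 0.0434). In edgeR it was −1.37 without embryo 7 (adjusted p = 4.7e-04) and −0.83 without embryos 1 and 4 (adjusted p = 0.106), and without any single library other than embryo 7 the adjusted p was 0.0542 to 0.162. With the length and GC correction it was −0.20 (edgeR adjusted p = 0.569, the largest of a range from 4.7e-04 over the alternatives). Of 7 tested genes of sialic acid synthesis and modification, *Siae*, the esterase that removes the O-acetyl group, was higher in the adult (−1.21, SE 0.25, edgeR adjusted p = 0.0012), as *Casd1* was. *St8sia1* (4.14) and *Nans* (1.07) were higher in the embryo, and the other 4 did not pass, so that 3 of 7 passed, against 51.4% of all tested genes. *Siae* did not pass after the correction, and *Nans* did not pass without adult 1 or without adult 2.

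*Sgce* (ENSMUSG00000004631.15, 4674350 to 4747207, reverse strand) encodes epsilon-sarcoglycan, a membrane protein of the dystrophin-associated complex. Its lowest, median and highest embryos had 61.6, 89.7 and 154 CPM, and the adults had 69.8 and 77.1 CPM. Embryo 6 was the highest, 5 embryos lay above both adults and embryo 1 lay below both. A log2 fold change of 0.33 (SE 0.31, edgeR adjusted p = 0.388) was within the spread between embryos. After the length and GC correction in edgeR it was 0.03 with the longest protein-coding transcript, of 1776 bp (adjusted p = 0.905), but 1.55 with the longest transcript of any type, of 4416 bp (adjusted p = 0.0026). That longest transcript is a retained intron. Over the alternatives in edgeR and DESeq2 the adjusted p ran from 0.0026 to 0.960.

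The other genes of the dystrophin-sarcoglycan complex were lower in the embryo where they passed the test. Of 11 genes 10 were tested, and *Dmd* (log2 fold change −2.08), *Sspn* (−1.60), *Utrn* (−1.45), *Sgcb* (−1.29) and *Dag1* (−0.79) were higher in the adult, against 27.4% of tested genes in that direction. These include dystrophin, utrophin, sarcospan, beta-sarcoglycan and dystroglycan. After the length and GC correction *Dmd* and *Utrn*, the longest of them, turned to 0.65 and 0.52 and did not pass, and neither did *Sgcb* and *Dag1*. *Sspn* passed with −0.78 there. *Dag1* passed in 4 of 15 alternatives, and not without adult 1, adult 2 or any of embryos 1, 2, 3, 4 and 6, nor without embryos 1 and 4 together. The most abundant of these genes, *Dag1*, had 49.4 to 127 CPM in the embryos and a mean of 147 ± 10.8 CPM in the adults (SD, n = 2).

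*Peg10* (ENSMUSG00000092035.8, 4747306 to 4760517, forward strand) derives from a retrotransposon and retains Gag-like and Pol-like reading frames. It starts 98 bp from the start of *Sgce*, in the opposite direction. The lowest, median and highest embryos had 112, 141 and 311 CPM, and adults 1 and 2 had 142 and 287 CPM. Embryos 5 and 7 (268 and 311 CPM) and adult 2 formed the high values, and the other 5 embryos (112 to 163 CPM) and adult 1 the low ones, so that high and low levels occurred in both stages. On the log2 scale the fold change was −0.26 (SE 0.40, edgeR adjusted p = 0.603). In edgeR it was 0.32 without adult 2 (adjusted p = 0.675), −0.04 without embryos 1 and 4 (adjusted p = 0.935), and 0.94 after the length and GC correction (adjusted p = 0.0262), where the sign had changed. Over the alternatives in edgeR and DESeq2 the adjusted p ran from 0.0262 to 0.935.

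The ratio of *Peg10* to *Sgce* within a library does not depend on scaling. It was highest in embryo 5, embryo 7 and adult 2, with count ratios of 3.55, 3.38 and 3.73, and lowest in embryo 6, with 0.887. The ratios of the other embryos were 1.36 to 1.95, and that of adult 1 was 2.04. The mean log2 ratio was 0.90 ± 0.71 in the embryo (SD, n = 7) and 1.46 ± 0.61 in the adult (SD, n = 2), a difference of −0.56 that was within the spread (exact permutation test, two-sided, p = 0.278, adjusted over the 2 ratios tested p = 0.278). The 3 genes most like *Peg10* over the 9 libraries, among 12743 that averaged 100 counts or more, were *Atp2a1* (Pearson r 0.97, Spearman rho 0.917), *Mcl1* (r 0.91, rho 0.95) and *Tpp1* (r 0.91, rho 0.933), a description without a test. *Sgce* had r −0.06 with *Peg10* and ranked 7654 in that order, and *Casd1* had r 0.72 and ranked 248.

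Of 13 other genes derived from retrotransposon Gag sequences, all were tested and 5 had an adjusted p below 0.05, against 51.4% of all tested genes. *Rtl3* had 12.6 to 46.6 CPM in the embryos and 4 counts in the adults together, a pooled ratio of 488 (95% counting interval 190.4 to 1791). *Ldoc1* also passed, with 1 count in the adults and a pooled ratio of 26.2 (95% counting interval 4.52 to 1055), but it passed in 5 of 15 alternatives. With each library left out in turn, the log2 fold change ran from 8.03 to 9.66 for *Rtl3* and from 3.25 to 6.01 for *Ldoc1*. *Rtl5* (−1.43), *Rtl8c* (−1.19) and *Pnma2* (−1.12) were higher in the adult. *Pnma2* did not pass in 4 of 15 alternatives, with −0.14 after the length and GC correction and −0.96 without adult 2. *Rtl5* did not pass without adult 2 (−1.24), and *Rtl8c* did not with the replicate block (−0.86) and was at −3.41 after the correction. The near-identical copies *Rtl8a*, *Rtl8b* and *Rtl8c* can share read pairs, which leaves their single values uncertain.

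**Figure D2:**
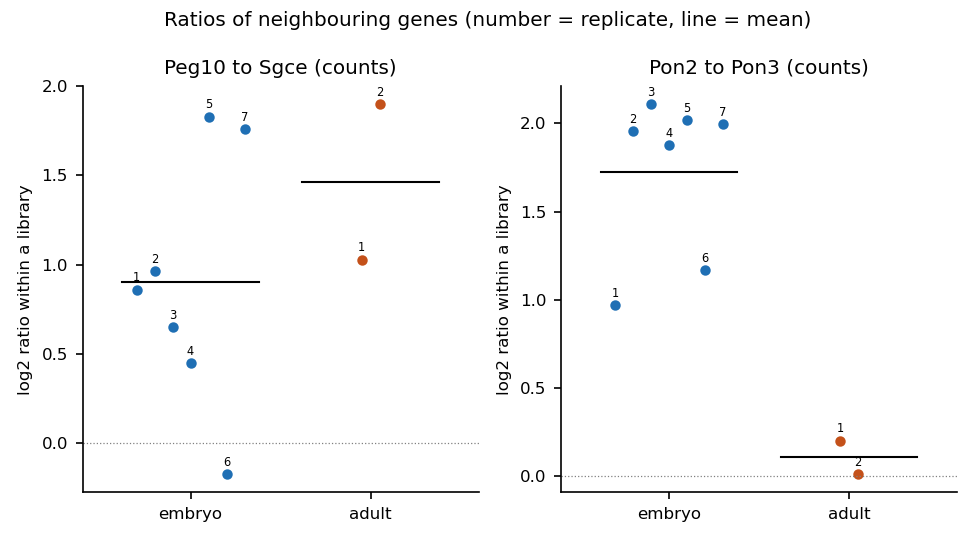
Log2 ratio of counts within each library for *Peg10* to *Sgce* and for *Pon2* to *Pon3*, with embryos in blue, adults in orange, replicate numbers beside the points and group means as lines. The first ratio overlaps between stages, and for the second all 7 embryos (0.97 to 2.11) are above both adults (0.20 and 0.01).

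*Ppp1r9a* (ENSMUSG00000032827.15, 4902917 to 5165661, forward strand) encodes neurabin, which binds actin and protein phosphatase 1. Its lowest, median and highest embryos had 15.98, 20.3 and 61.8 CPM, and the adults had 68.0 and 77.7 CPM. Embryos 1 and 4 had 61.8 and 55.7 CPM and the other 5 embryos 15.98 to 21.3 CPM, so that both lay near the adults although every embryo was below both. Its log2 fold change was −1.29 (SE 0.47, edgeR adjusted p = 0.0337), and −1.97 without embryos 1 and 4 (adjusted p = 2.7e-05). After the length and GC correction it was 0.57 (edgeR adjusted p = 0.399), in the opposite direction. Without any one of embryos 2, 3, 5, 6 and 7 or of the adults the edgeR adjusted p was 0.0505 to 0.158, and over all alternatives in edgeR and DESeq2 it ran from 2.7e-05 to 0.409. *Ppp1r9a* has the longest transcript of the 10 genes (9547 bp).

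The embryos with much *Ppp1r9a* were those with much erythroid RNA. The summed erythroid level was 163744 and 203665 CPM there, 6022 to 18512 CPM in the other embryos, and 657 and 1703 CPM in the adults. The share of read pairs on no annotated feature was 6.31% and 4.24% in embryos 1 and 4, 6.39% and 6.62% in the adults, and 2.40% to 3.07% in the other embryos. The part of either in the level of *Ppp1r9a* was not tested. Of 8 genes of neurabin’s relatives and protein phosphatase 1, 5 passed, against 51.4% of all tested genes. *Ppp1ca* (2.34) and *Ppp1cc* (1.12), catalytic subunits of the phosphatase, were higher in the embryo, while the remaining catalytic subunit, *Ppp1cb*, was at −0.74 and did not pass (SE 0.32, edgeR adjusted p = 0.0672), with 6 of 7 embryos below both adults. *Ppp1cc* did not pass without adult 1 or without adult 2. *Rgs4* (−3.66), the inhibitor gene *Ppp1r1b* (−4.27) and *Ppp1r2* (−0.80, but 0.29 after the length and GC correction) were higher in the adult. With each library left out in turn, *Rgs4* ran from −4.18 to −2.88 and *Ppp1r1b* from −4.81 to −3.96. Over all alternatives *Ppp1r1b* reached −8.91. *Ppp1r9b*, which encodes the related spinophilin, did not pass (−0.38, SE 0.31, edgeR adjusted p = 0.309).

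**Figure D3:**
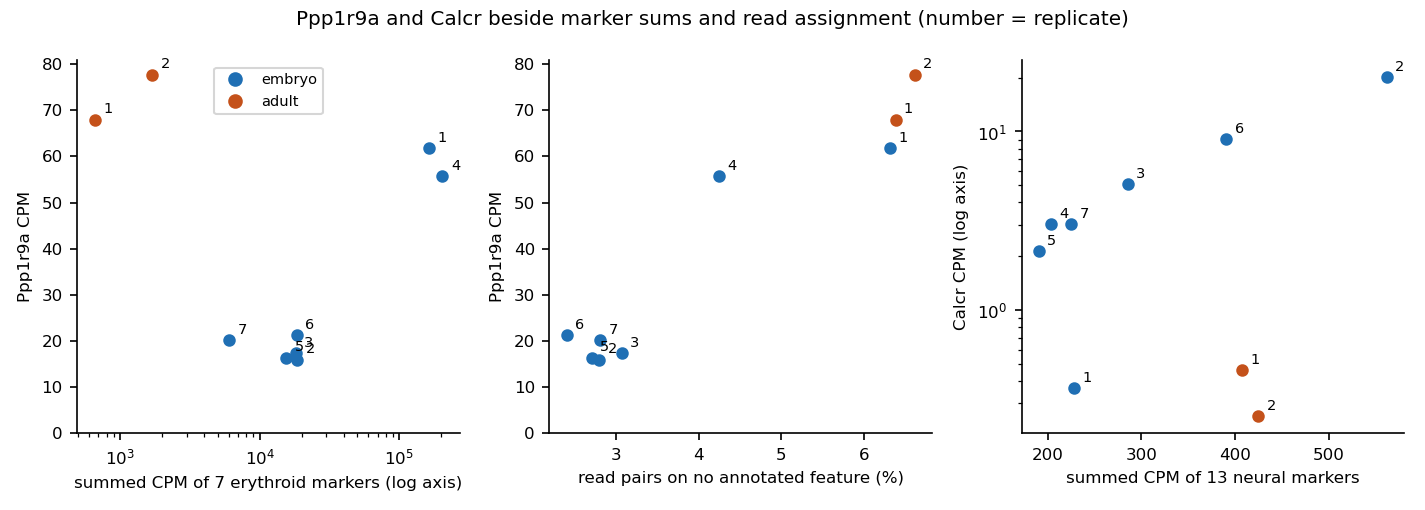
Level of *Ppp1r9a* against the summed CPM of 7 erythroid markers (left, log axis) and against the percent of read pairs on no annotated feature (middle), and level of *Calcr* on a log axis against the summed CPM of 13 neural markers (right), with 1 point per library, embryos in blue and adults in orange. Embryos 1 and 4 (61.8 and 55.7 CPM of *Ppp1r9a*) lie apart from the other embryos in the left and middle plots, and embryo 2 has the highest neural sum and the highest *Calcr*.

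*Pon3* (ENSMUSG00000029759.9, 5220852 to 5256286) and *Pon2* (ENSMUSG00000032667.17, 5264147 to 5298455), both on the reverse strand, encode paraoxonases, which hydrolyse lactones. RefSeq’s table of promoters in GRCm38.p6, with 250 bases before and 50 after a gene’s start, holds entries for 8 of the 10 genes. Where it lists several windows for a gene, the one nearest to the gene’s annotated start was taken. The windows of these adjacent paralogs are shown because *Pon2* passed the test and *Pon3* did not, with each CG in capitals and written 5′ to 3′ on the gene’s strand, at chr6:5298291-5298590 for *Pon2* and chr6:5256184-5256483 for *Pon3*.
Pon2: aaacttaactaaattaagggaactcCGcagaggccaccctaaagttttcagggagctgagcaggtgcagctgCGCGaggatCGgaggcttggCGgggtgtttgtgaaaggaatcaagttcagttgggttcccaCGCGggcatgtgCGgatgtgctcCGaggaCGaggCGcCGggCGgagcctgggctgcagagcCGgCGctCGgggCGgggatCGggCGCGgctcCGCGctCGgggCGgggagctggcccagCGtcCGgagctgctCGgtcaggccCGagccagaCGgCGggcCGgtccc
Pon3: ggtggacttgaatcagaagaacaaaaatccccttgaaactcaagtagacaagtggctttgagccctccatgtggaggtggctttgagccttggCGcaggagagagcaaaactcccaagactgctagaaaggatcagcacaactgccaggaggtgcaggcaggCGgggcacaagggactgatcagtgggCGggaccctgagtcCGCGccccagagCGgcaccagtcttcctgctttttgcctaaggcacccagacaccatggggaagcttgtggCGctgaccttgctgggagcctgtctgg
The *Pon2* sequence has 31 CG and the *Pon3* sequence 7, against a median of 7 over 32851 promoters of the same length. The letters GGGCGG, searched on both strands, were found 3 times in the *Pon2* window and 1 time in the *Pon3* window, and 35.7% of the promoters hold them.

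*Pon3* had 6.498, 10.4 and 19.5 CPM as the lowest, median and highest embryo and 15.7 and 20.1 CPM in the adults. Embryo 6 lay between the adults and the other 6 embryos lay below both. Its log2 fold change of −0.70 (SE 0.38, edgeR adjusted p = 0.134) ran from −0.92 to −0.52 over the alternatives in edgeR and DESeq2, with adjusted p of 0.0461 to 0.473. The lowest, the single one to pass, came from the correction with the longest transcript of any type. *Pon2* had 24.5, 38.6 and 45.8 CPM as the lowest, median and highest embryo and 18.1 and 20.3 CPM in the adults. All 7 embryos lay above both adults, with a log2 fold change of 0.89 (SE 0.32, edgeR adjusted p = 0.0314). Its adjusted p in edgeR was 0.183 with library size alone as the scaling, 0.121 with the replicate block, 0.206 and 0.137 without adult 1 or adult 2, and 0.0508 without embryo 5, in a range of 0.0041 to 0.206 over the alternatives. Without embryos 1 and 4 the log2 fold change was 1.07 (edgeR adjusted p = 0.0054). The third paralog of the cluster, *Pon1* (5168090 to 5193946), was low, with 0.353 to 1.90 CPM in the embryos and 0.218 and 0.281 CPM in the adults (log2 fold change 1.86, SE 0.85, edgeR adjusted p = 0.0807).

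Within a library the 2 adjacent genes were compared directly. Counts of *Pon2* were 1.96 to 4.31 times those of *Pon3* in the embryos, and 1.15 and 1.01 times in adults 1 and 2. The lowest embryos were 1 and 6, with 1.96 and 2.25, and all 7 were above both adults. The mean log2 ratio was 1.73 ± 0.46 (SD, n = 7) in the embryo and 0.11 ± 0.13 (SD, n = 2) in the adult, a difference of 1.62. The exact permutation test over the 36 ways to choose 2 libraries gave its smallest possible p of 0.0278, two-sided, and p = 0.0556 adjusted over both ratios. With the other ratio at p = 0.278 this is the smallest adjusted value the permutation test could give, so a threshold of 0.05 was out of reach. Without embryos 1 and 4 the difference was 1.74.

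The annotation used for counting ends *Pon3* at 5220852, whereas RefSeq’s model extends to 5216256 and thus covers *Gm44250* (5216258 to 5220486, same strand), which was counted separately. *Gm44250* had 1.06, 2.37 and 10.1 CPM as the lowest, median and highest embryo and 14.3 and 19.5 CPM in the adults. Its counts were 0.163 to 0.364 times those of *Pon3* in embryos 2 to 7, 0.807 times in embryo 1, and 0.909 and 0.973 times in the adults. Embryo 1 was thus near the adults and apart from the other embryos. The counts of both genes together came to 7.55 to 22.9 CPM in the embryos, all below both adults (30.04 and 39.6 CPM), so the overlap seen for *Pon3* alone depends on the gene model. For *Gm44250* the log2 fold change was −2.34 (SE 0.57, edgeR adjusted p = 0.0037), −2.93 without embryos 1 and 4, and −1.13 after the length and GC correction, where it did not pass. In an alternative added once the data had been seen, its counts were added to *Pon3*, and the difference of the log2 ratio of *Pon2* to *Pon3* between stages was 2.21.

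*Asb4* (ENSMUSG00000042607.15, 5383386 to 5433022, forward strand) encodes a substrate-binding subunit of a cullin-5 ubiquitin ligase, and *Pdk4* (ENSMUSG00000019577.6, 5483351 to 5496309, reverse strand) encodes a kinase that inhibits the pyruvate dehydrogenase complex. These neighbours at the distal end were both higher in the adult, and for both the adjusted p stayed below 0.05 in every alternative. Their promoter windows, at chr6:5383136-5383435 for *Asb4* and chr6:5496229-5496528 for *Pdk4*, are shown for that reason, in the same notation. The table lists 2 windows for *Asb4*, and only the one nearest to its annotated start is shown.
Asb4: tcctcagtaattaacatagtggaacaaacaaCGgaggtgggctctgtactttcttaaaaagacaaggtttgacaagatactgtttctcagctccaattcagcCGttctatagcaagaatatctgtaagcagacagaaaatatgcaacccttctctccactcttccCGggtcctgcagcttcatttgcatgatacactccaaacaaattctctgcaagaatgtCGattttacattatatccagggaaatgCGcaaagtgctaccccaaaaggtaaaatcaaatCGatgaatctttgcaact
Pdk4: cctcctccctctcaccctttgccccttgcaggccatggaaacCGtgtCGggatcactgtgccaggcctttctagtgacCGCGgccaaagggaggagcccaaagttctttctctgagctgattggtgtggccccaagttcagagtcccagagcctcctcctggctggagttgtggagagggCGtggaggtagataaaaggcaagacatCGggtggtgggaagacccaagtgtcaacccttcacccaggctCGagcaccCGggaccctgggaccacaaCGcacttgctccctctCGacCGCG
The *Asb4* window has 6 CG and the *Pdk4* window 12, and GGGCGG was found in neither on either strand. The letters TATAAA, also searched on both strands, were found in neither, and 13.6% of the promoters hold them.

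*Asb4* had 26.8, 36.02 and 52.1 CPM as the lowest, median and highest embryo and 119 and 119.9 CPM in the adults. The adults differed little and lay above all 7 embryos. Its log2 fold change was −1.67 (SE 0.26, edgeR adjusted p = 1.5e-04), a 3.18-fold difference that fell short of the threshold of 4. Over the alternatives in edgeR and DESeq2 it ran from −1.89 to −1.04, the latter after the length and GC correction, with adjusted p of 3.2e-07 to 0.0037. *Pdk4* had 0.423, 1.01 and 2.64 CPM as the lowest, median and highest embryo and 12.3 and 9.59 CPM in the adults. Embryos 4 and 6 were the lowest, with 6 and 11 counts, and the fold change on the log2 scale was −2.96 (SE 0.54, edgeR adjusted p = 5.0e-04). It ran from −3.15 to −2.31 over the alternatives in edgeR and DESeq2, with adjusted p of 3.3e-06 to 0.0103.

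Of 11 genes of the *Asb* family and its ligase, 10 were tested and 8 had an adjusted p below 0.05, against 51.4% of all tested genes. *Elob* (2.83), *Asb9* (2.51), *Rnf7* (1.496), *Asb6* (1.39) and *Eloc* (1.13) were higher in the embryo, and the scaffold *Cul5* (−2.14), *Asb1* (−1.33) and *Asb13* (−1.05) were higher in the adult. After the length and GC correction *Cul5*, *Asb1* and *Asb13* were at −0.47, −0.42 and −0.35 and did not pass, and neither did *Asb9*. *Asb9*, *Eloc* and *Asb13* did not pass without adult 1 or without adult 2, nor *Asb6* without adult 2. Of 9 tested genes that form or control pyruvate dehydrogenase, 3 passed, against 51.4% of all tested genes. *Pdk3* (1.01) was higher in the embryo, and the phosphatases *Pdp1* (−1.56) and *Pdp2* (−1.11) were higher in the adult. After the length and GC correction *Pdp1* and *Pdp2* were at −0.24 and −0.080 and did not pass. Without adult 2 *Pdk3*, *Pdp1* and *Pdp2* did not pass, nor did *Pdp2* without adult 1, nor *Pdk3* and *Pdp2* with the replicate block. *Pdk1* and *Pdk2*, the other kinases, did not pass, with −0.71 (edgeR adjusted p = 0.0939) and −0.15 (edgeR adjusted p = 0.716). *Pdk4* had the largest difference of the 4 kinases on the log2 scale.

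Of 71 tested genes over all the lists of partners, 38 had an adjusted p below 0.05, where 51.4% of all tested genes did. Of the 38, 20 were higher in the embryo and 18 in the adult. Their number was 26 without adult 1 and 22 without adult 2, in fits where 32.9% and 30.6% of all tested genes passed. Of the 38 genes, 13 passed in the same direction in all 15 alternatives run for them. These were *Calca*, *Ramp2*, *Ramp3*, *Mmp2*, *Tfpi*, *St8sia1*, *Rtl3*, *Ppp1ca*, *Elob* and *Rnf7*, higher in the embryo, and *Sspn*, *Ppp1r1b* and *Rgs4*, higher in the adult. The log2 fold changes of some were smaller after the length and GC correction, with 0.76 for *Elob*, 0.81 for *Rnf7*, 1.80 for *Ramp2*, 1.16 for *Ramp3* and 1.36 for *Ppp1ca*.

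Levels of the 10 genes were ordered per kilobase of the longest protein-coding transcript. In the embryo the mean CPM per kilobase was 52.0 for *Sgce*, 26.9 for *Peg10*, 14.7 for *Pon2*, 11.4 for *Asb4*, 8.46 for *Casd1*, 6.01 for *Pon3*, 3.12 for *Ppp1r9a*, 1.63 for *Calcr*, 0.423 for *Tfpi2* and 0.396 for *Pdk4*. Every pair of neighbours in that order overlapped in range over the embryos, but *Sgce* exceeded *Peg10* and *Peg10* exceeded *Pon2* in 7 of 7 embryos per kilobase. In the adult the order per kilobase was *Sgce* (41.3), *Asb4* (36.3), *Peg10* (32.2), *Casd1* (17.2), *Pon3* (9.75), *Pon2* (7.97), *Ppp1r9a* (7.63), *Pdk4* (3.15), *Tfpi2* (0.398) and *Calcr* (0.0948). The adult ranges per kilobase overlapped between *Asb4* and *Peg10* and between *Pon2* and *Ppp1r9a*, and between no other neighbours in the order. With these lengths *Sgce* was first in both stages. Per kilobase of the longest transcript of any type, added once the data had been seen, *Sgce* had 20.9 in the embryo, after *Peg10*, and 16.6 in the adult, after *Asb4*, *Peg10* and *Casd1*. With either length *Pon2* was above *Pon3* per kilobase in the embryo mean and below it in both adults. Both lengths leave out the 4229 bp counted as *Gm44250*, which RefSeq’s model includes in *Pon3*. The order of these genes in the adults can therefore change with the gene model.

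The spread between embryos differed among the genes. The coefficient of variation of CPM over the 7 embryos was 111% for *Calcr*, 66.8% for *Ppp1r9a*, 62.5% for *Pdk4*, 57.9% for *Casd1*, 43.6% for *Peg10*, 39.7% for *Tfpi2*, 39.5% for *Pon3*, 31.8% for *Sgce*, 25.7% for *Pon2* and 24.8% for *Asb4*. The median over 12744 genes that averaged 100 counts or more was 30.5%. Different embryos were high for different genes. Embryo 7 was the highest for *Casd1*, *Peg10* and *Asb4*, embryo 6 for *Sgce* and *Pon3*, embryo 2 for *Calcr* and *Pon2*, embryo 1 for *Tfpi2* and *Ppp1r9a*, and embryo 3 for *Pdk4*. Among the same 12744 genes, embryos 7, 6, 2, 1 and 3 were highest for 23.0%, 13.1%, 14.8%, 15.8% and 16.7%. Embryos 4 and 5, highest for none of the 10 genes, were highest for 8.63% and 8.11%.

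**Figure D4:**
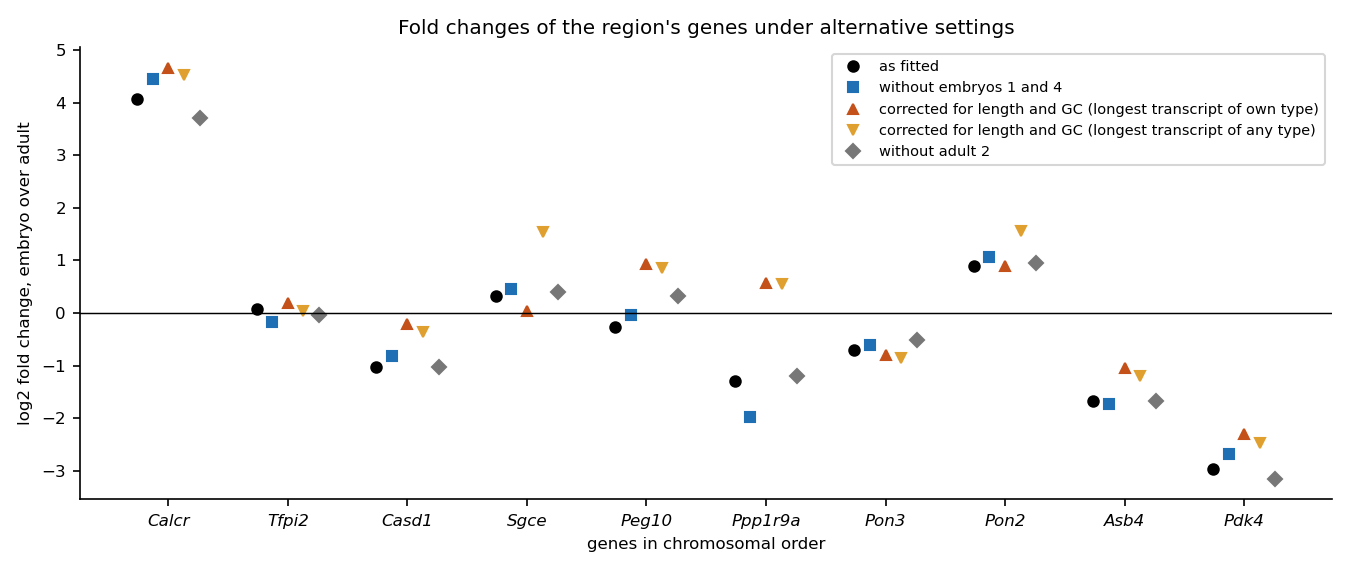
Log2 fold change of each gene, embryo over adult, as fitted, without embryos 1 and 4, after correction for transcript length and GC content with 2 choices of transcript, and without adult 2. *Calcr* stays positive and *Asb4* and *Pdk4* stay negative in the settings drawn, whereas *Peg10* and *Ppp1r9a* change sign with the correction and *Sgce* moves from 0.03 to 1.55 with the choice of transcript. *Peg10* also changes sign without adult 2 (0.32).

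The other genes of the interval were examined in the same order. Of 30 other annotated genes between the outer ends of *Calcr* and *Pdk4*, 10 were tested, 4 of them protein-coding. An adjusted p below 0.05 was found for 4 of the 10, against 51.4% of all tested genes. *Gng11*, a G protein gamma subunit, had 74.8 to 140 CPM in the embryos and 23.2 and 21.2 CPM in the adults (log2 fold change 2.32, SE 0.35, edgeR adjusted p = 1.1e-04), and its log2 fold change was 0.90 after the length and GC correction, where it also passed. Its neighbour *Gngt1* was not tested. It had no count in either adult and 0 to 13 counts in the embryos, at least 2.996-fold higher in the embryo mean against a floor of 3 counts per library. *Bet1* (−0.52, SE 0.30, edgeR adjusted p = 0.156) and the collagen gene *Col1a2* (0.30, SE 0.44, edgeR adjusted p = 0.584) did not pass, and their signs changed in some alternatives.

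The other tested genes of the interval, apart from *Pon1* and *Gm44250*, are unclassified transcripts. *Gm37883* had 4 counts over all embryos and 55 and 20 in the adults, a pooled ratio of 39.3, adult over embryo (95% counting interval 14.7 to 148), and *Gm26696* had 6 counts over all embryos and 23 and 17 in the adults, a pooled ratio of 13.97 (95% counting interval 5.89 to 40.3). With each library left out in turn, their log2 fold changes ran from −6.28 to −4.85 and from −4.32 to −3.50. Both had edgeR adjusted p-values below the threshold (0.0011 and 0.0073), but neither passed with the replicate block, nor *Gm26696* in DESeq2. *Gm44432*, which lies within *Casd1*, and *Gm26814* and *Gm26736*, which lie within *Ppp1r9a*, did not pass, with log2 fold changes of 2.51, 1.93 and 2.44. These were 1.87, 1.36 and 1.59 without adult 1 and 3.57, 2.81 and 4.39 without adult 2, and *Gm26814* passed after the length and GC correction with either choice of transcript. *Gm26814* was highest in embryos 4 and 1, with 2.19 and 1.47 CPM, with 0.121 and 0.337 CPM in the adults and 0.160 to 0.894 CPM in the remaining embryos.

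Beyond the interval, all 3 tested protein-coding genes on the side of *Calcr* were higher in the adult. These were *Hepacam2* (log2 fold change −7.32, SE 0.68, edgeR adjusted p = 2.4e-06), *Samd9l* (−5.02) and *Vps50* (−1.05, but 0.15 after the length and GC correction). *Vps50* passed in 7 of 15 alternatives, and not without adult 1, adult 2 or any of embryos 3, 4 and 6, nor without embryos 1 and 4 together. *Hepacam2* had at most 1.26 CPM in an embryo and 87.0 and 65.7 CPM in the adults. On the side of *Pdk4*, *Dync1i1* was higher in the adult (−3.95) and *Sem1* in the embryo (2.47), and *Slc25a13* (0.78), *Dlx6* (−0.20) and *Dlx5* (0.64) did not pass. Of the 18 other genes tested in and beside the interval, 9 had an adjusted p below 0.05 (51.4% of all tested genes), 2 of them higher in the embryo (24.0%) and 7 in the adult (27.4%).

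**Figure D5:**
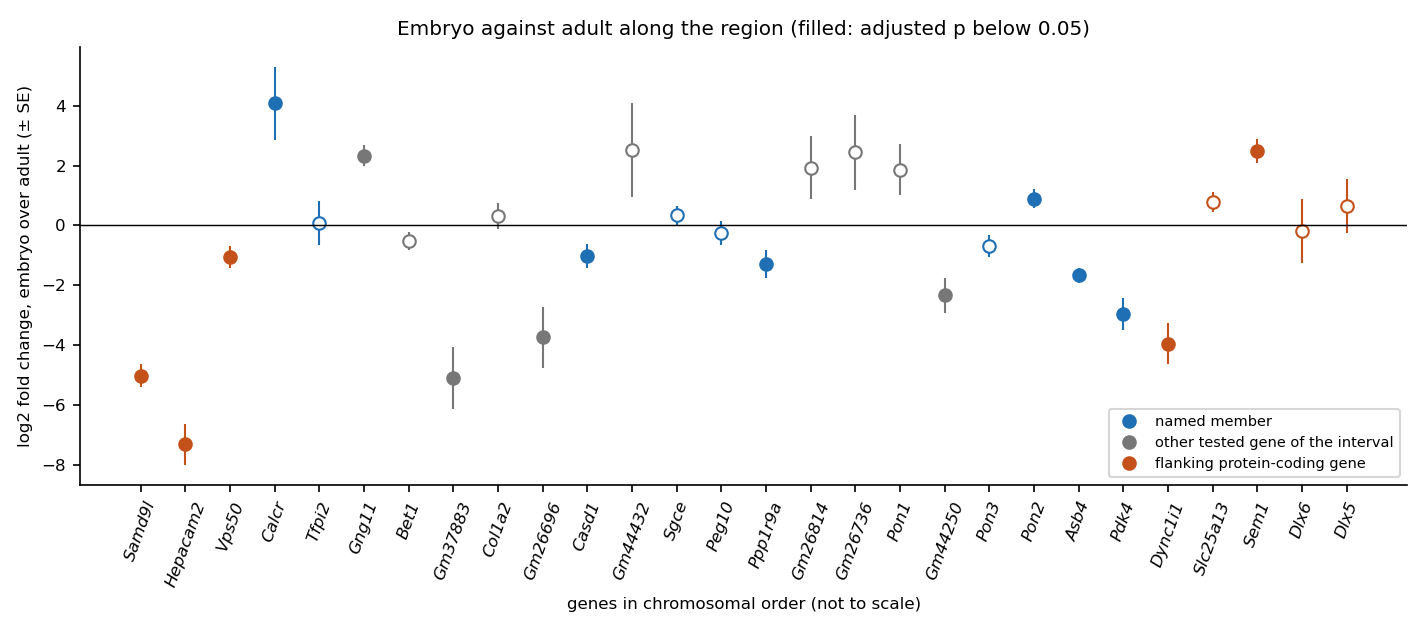
Log2 fold change, embryo over adult, with its standard error for the 10 genes (blue), the other tested genes of the interval (grey) and the flanking protein-coding genes (orange), in chromosomal order and not to scale. Filled points have an adjusted p below 0.05, and of these *Calcr*, *Gng11*, *Pon2* and *Sem1* lie above 0 and the others below, from *Hepacam2* at −7.32 to *Calcr* at 4.08, though *Ppp1r9a* and *Vps50* change sign after the length and GC correction.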

How the data were processed

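RNA was measured by sequencing in 7 embryo and 2 adult libraries, after selection of poly(A) RNA and directional library preparation. The files hold read pairs per gene as raw counts, which the authors made with Trimmomatic 0.39 and STAR 2.7.5b on GRCm38 with Ensembl 96 genes before the files were deposited. Column 4, the strand-specific count, was used. Identifiers were matched to GENCODE M21, which holds all 55450 of them.

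Genes with a mean count below 5 were left out, and 19371 remained. Embryo was compared with adult in edgeR 4.0.16 (R 4.3.3) with TMM normalisation, the quasi-likelihood F test and the Benjamini–Hochberg adjustment over all tested genes. A difference was called at an adjusted p below 0.05 and a fold change above 4, as in the study, and counts without the fold requirement are given beside it. Group means are of CPM, with SD. Ratios of 2 genes within a library were compared by an exact permutation test of the difference of means on the log2 scale, adjusted over the 2 ratios. The test code was tried on simulated data. Ratios of counts in genes with few counts carry exact 95% counting intervals, and bounds use a floor of 3 counts. Depth was 16738863 to 36421545 counted read pairs per library.

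The alternatives were DESeq2 1.42.0, its size factors or library size alone in edgeR, other filters, unstranded counts, a block on replicate number, leaving out each library, leaving out embryos 1 and 4, and a correction of each library’s values by splines (4 degrees of freedom) of transcript length and GC content, fitted on genes that averaged 50 counts or more. The correction cannot separate a technical trend between the stages from a biological one, so values with and without it are given. Where a single adult was left, it was assumed to vary like the embryos. The length of a gene is that of its longest transcript of the gene’s own type. This definition was chosen after the correction with the longest transcript of any type had been seen, and both are given.

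The 10 genes, the lists of partners and the marker lists were chosen with earlier results from these data known. Named are all 10 genes, all tested genes of the interval, the nearest tested protein-coding genes on either side (at most 5 each), all partner genes with an adjusted p below 0.05 where a direction held 5 or fewer, and the 3 genes most like *Peg10*. The genes *Gngt1*, *Ppp1r9b*, *Ppp1cb*, *Pdk1* and *Pdk2* were named after their values were seen. Promoter sequences and the RefSeq model of *Pon3* come from RefSeq on GRCm38.p6. Calculations outside R used Python 3.11.15, pandas 2.3.3 and scipy 1.17.1.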

Additional observations from a re-analysis of the deposited data

Results flagged for a closer look

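In 2 of 12 sets of 7 embryo values, the 10 genes and 2 ratios, a single embryo lay far from the others by Dixon’s test. For normally distributed values chance alone gives such a value in about 1 in 20 sets. Levels were taken in CPM without a log scale, and the ratios reuse some of the genes, so that rate is a rough guide. The level of *Casd1* was 76.1 CPM in embryo 7, against at most 36.9 CPM in the other embryos and 67.5 and 69.0 CPM in the adults. The level of *Sgce* was 154 CPM in embryo 6, against at most 92.0 CPM in the other embryos and 69.8 and 77.1 CPM in the adults. Embryo 6 had the lowest ratio of *Peg10* to *Sgce*, 0.887. The cause of either value was not tested.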

How the results depend on the processing

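*Asb4* and *Pdk4* kept their direction and an adjusted p below 0.05 in all 19 alternatives. *Calcr* did so in 17, *Pon2* in 14, *Ppp1r9a* in 10 and *Casd1* in 7, and *Calcr*, *Pon2* and *Casd1* changed direction in none. The difference between the stages in the log2 ratio of *Pon2* to *Pon3* ran from 1.52 to 2.21 over its alternatives, and that of *Peg10* to *Sgce* from −0.99 to −0.12. The alternatives with the longest transcript of any type and with *Gm44250* added to *Pon3* were chosen after seeing the data.

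With a fold change threshold of 2, the genes called were 5 of the 10, with 4 higher in the adult. How many of all tested genes pass that threshold is not given. Their percentage must lie between 25.8% (fold change above 4) and 51.4% (no fold requirement). In the adult direction the limits are 14.6% and 27.4%. When the fold change itself was tested against 4 (glmTreat in edgeR), 0 of the 10 genes were called, and 0 in either direction, where 9.003% of all tested genes passed. At an unadjusted p below 0.05 that test gave 2, *Calcr* and *Pdk4*, and no share of all tested genes is given for that threshold. DESeq2 with a fold change above 4 gave 2, where 26.1% of all tested genes passed. Without the fold requirement, the genes higher in the embryo numbered 1 with library size alone, 4 with the longest transcript of any type, and those higher in the adult 2 after the length and GC correction. In these fits 47.1%, 48.4% and 48.1% of all tested genes passed, counted over both directions. Other genes of the interval and its flanks that were higher in the embryo numbered 4 without embryos 1 and 4 and 4 after either correction. Over both directions, 56.8% of all tested genes passed without embryos 1 and 4, and 48.1% and 48.4% after the corrections. Partner genes higher in the adult numbered 11 after the length and GC correction, where 48.1% of all tested genes passed over both directions.

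With any 1 embryo left out, 2 of the 10 genes were called, against 24.6% to 27.2% of all tested genes in the same fits. Leaving out each library in turn gave a lower number only where an adult was left out, and there fewer of all tested genes were called as well. Without the fold requirement it gave 2 to 5, with 0 to 2 higher in the embryo and 2 to 3 in the adult, while 30.6% to 54.9% of all tested genes passed in the same fits. The other genes of the interval and its flanks numbered 6 to 10, with 4 to 7 higher in the adult. Partner genes numbered 22 to 41, with 11 to 22 in either direction. The lowest count of partner genes came without adult 2. *Tfpi2* ran from −0.038 to 0.26, *Peg10* from −0.70 to 0.32, *Col1a2* from −0.051 to 0.73 and *Dlx6* from −0.59 to 0.29.

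These log2 fold changes had the opposite sign after the length and GC correction, or with the longest transcript of any type: *Peg10* 0.94 and 0.87, *Ppp1r9a* 0.57 and 0.56, *Vps50* 0.15 and 0.26, *Dlx5* −0.32 and −0.34, *Dmd* 0.65 and 0.71, *Utrn* 0.52 and 0.58, *Ppp1r2* 0.29 and 0.11. *Bet1* had 0.044 with the longest transcript of any type. Over 19371 genes the log2 fold change had a Spearman correlation of −0.402 with transcript length, and 0.0581 after the correction. *Tfpi2* had −0.17 with library size alone and −0.16 without embryos 1 and 4. *Dlx6* had 1.29 with unstranded counts, 0.10 without embryos 1 and 4 and 0.051 without embryo 4. The cause was not tested.

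The median log2 fold change of all tested genes was −0.04, and −0.26 with library size alone. With a block on the replicate number it was −0.20, *Sgce* had −0.029, *Dlx6* had 0.26, and 1 of the 10 genes was higher in the embryo without the fold requirement. The share of all tested genes that passed, over both directions, fell as well, from 51.4% to 39.8%. The replicate numbers showed no sign of marking pairs of animals. Deviations from the group mean correlated between embryo 1 and adult 1 with r 0.0433 and between embryo 2 and adult 2 with r −0.0339, over 12744 genes. The deviations of 2 adults mirror each other, so this comparison has little power to find pairing.

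Depth limits the low genes. *Calcr* had 5 counts in embryo 1, *Pdk4* 6 in embryo 4, and *Tfpi2* had 146 counts over all 9 libraries.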

Other observations

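The files also hold counts on the strand opposite to each gene. Over the 10 genes and 9 libraries these came to 84, against 116840 on the genes’ own strand (0.0718% of both). Over all genes that share was 4.38% to 5.17% per library.

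Summed levels of the remaining marker lists, in CPM, were 161 to 374 (embryos) with 15.0 and 8.83 (adults) for cartilage, 106 to 255 with 86.1 and 135 for macrophages, 7.64 to 17.2 with 8.36 and 7.98 for skeletal muscle, and 2.50 to 8.37 with 3.10 and 2.76 for oral epithelium. The list of pituitary hormones gave 870.2 to 1920.5 with 152482 and 160059.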
